A study of Homo sapiens with 2 samples.

Results

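The subunit genes of the ionotropic glutamate receptors and of the GABA-A receptor are neuronal genes, several of which are known as NRF-1 targets in neurons. The 9 genes described here, GRIN1, GRIN2A, GRIN2B, GRIN2D, GRIA1, GRIA2, GRIA3, GRIA4 and GABRB1, were taken as a fixed list of 9 of 19794 protein-coding genes, and all 9 were found in the annotation. The binding of NRF-1 had been mapped by ChIP-seq in U251, a human glioblastoma line that is long established, 1 sample having received control siRNA (siControl) and the other siRNA against AATF, a transcriptional cofactor examined in the study together with NRF-1 (siAATF). Both groups were the same line and the same antibody, and each was represented by 1 list of peaks, 18014 in siControl and 18454 in siAATF. No list of a separate replicate was analysed here, so no difference between the lists was tested, no spread between replicates was available, and the depth of the libraries was unknown. Neither the level of AATF nor any expression was measured by these lists, and no input or IgG library was analysed here.

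GRIN genes encode NMDA receptor subunits, of which GRIN1 gives the obligatory subunit and the GRIN2 genes the glutamate-binding ones. GRIA genes encode the AMPA receptor subunits that carry fast excitatory transmission, and GABRB1 encodes a beta subunit of the inhibitory GABA-A receptor. NRF-1 binds DNA as a dimer at a palindromic GC-rich word and is known to be hindered by methylation of the CpG steps in that word. In neurons it has been described as a factor that couples genes of energy production to genes of excitatory synapses.

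NRF-1 peaks were found at the promoters of 3 of the 4 AMPA receptor genes, GRIA2, GRIA3 and GRIA4, and of GABRB1, in both lists. Among the 4 NMDA receptor genes, GRIN2B alone had a promoter peak, in siControl alone, and GRIN1, GRIN2A, GRIN2D and the AMPA receptor gene GRIA1 had none in either list. Promoters reached 1 kb to each side of every start used by a coding transcript of the gene. The count was thus 5 of 9 genes in siControl and 4 of 9 in siAATF, beside 61.1% and 60.7% of all coding genes. With a −log10 q of at least 5, a stricter limit on significance, it was 3 of 9 in each list, GRIA2, GRIA3 and GABRB1, beside 51.5% of coding genes in each. None of these shares was above that of coding genes at large, and the promoter sequences of the occupied and unoccupied receptor genes were then compared.

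The NRF-1 core was taken as the palindrome GCGCATGCGC, searched on both strands, and a window of the same length with at most 1 other base was counted as a match. The sites below are those found within 1 kb of a coding start of these genes, and they are shown because they lie in the occupied promoters or, for the upstream start of GABRB1, in a promoter with no peak. Each is 30 bases of the GRCh37 sequence read 5′ to 3′ on the strand of the gene, with the 10 bases of the core in capitals.
GRIN2B, chr12:14133841-14133870, minus strand: tgcgcgcgggGCGCGTGCGCgtcgggggcg
GRIA2, chr4:158141731-158141760, plus strand: gccgcgagtcGCGCACGCGCgcccgggact
GRIA3, chrX:122317379-122317408, plus strand: ggcagagaccGGGCATGCGCagcatcttcg
GABRB1, chr4:47033558-47033587, plus strand: agcgcgctctGCGCATGCGCaggtccattc
GABRB1 upstream start, chr4:46995732-46995761, plus strand: tcgtatccgcGCGCTTGCGCtgcaagactc

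With positions counted from 1 at the 5′ end of the core, the GRIN2B site carried A5G, the GRIA2 site T6C, the GRIA3 site C2G and the site at the upstream start of GABRB1 A5T, whereas the main GABRB1 site matched exactly. A5G and T6C are the same change seen from opposite strands, so that GRIN2B and GRIA2 shared 1 form of the core. The sites of GRIN2B and GRIA2 each held 3 CpG steps, those of GABRB1 2, and the GRIA3 site 1.

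Each of the 4 genes with a match had it inside its siControl promoter peak. The GRIA2 site lay 29 bp from the midpoint of the siControl peak, the GRIA3 site 39.5 bp, the GRIN2B site 55.5 bp and the GABRB1 site 14.5 bp. In siAATF the same sites lay 36 bp from the midpoint for GRIA2, 86.5 bp for GRIA3 and 163.5 bp for GABRB1, whose peak extended further into the gene. The 4 genes without a promoter peak in either list, GRIN1, GRIN2A, GRIN2D and GRIA1, had no such match within 1 kb of a coding start. Their closest windows had 2 mismatches in GRIN1, GRIN2A and GRIA1 and 3 in GRIN2D. GRIA4 differed from both sets, since its promoter had a peak in each list while its closest window had 3 mismatches.

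A core within 1 mismatch was thus present in the promoters of 4 of 9 genes, beside 18.3% of all coding genes, and the exact core in 1 of 9, beside 2.75%. Several of the 9 are known NRF-1 targets, and the list was chosen with earlier results of these data known. The share of genes with a match, and how many of those carried a peak, may therefore reflect that choice, which was not tested. Of the 37 other receptor genes counted further below, 2 had a match. A control palindrome with the same base composition and the same number of CpG steps, CCGGATCCGG, was within 1 mismatch in 0 of 9 promoters, beside 12.4% of all. Among coding genes with a core match, a promoter peak was present for 87.9% in siControl and 87.3% in siAATF, and the receptor genes with a match had one in 4 of 4 and 3 of 4 cases. Among coding genes with no match these shares were 55.1% and 54.7%, and 1 of 5 receptor genes, GRIA4, had a peak in each list. Read from the peaks, the strongest promoter peak held a match for 4 of 5 occupied receptor genes in siControl and 3 of 4 in siAATF, beside 23.9% and 24.0% of coding genes with a promoter peak.

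**Figure D1:**
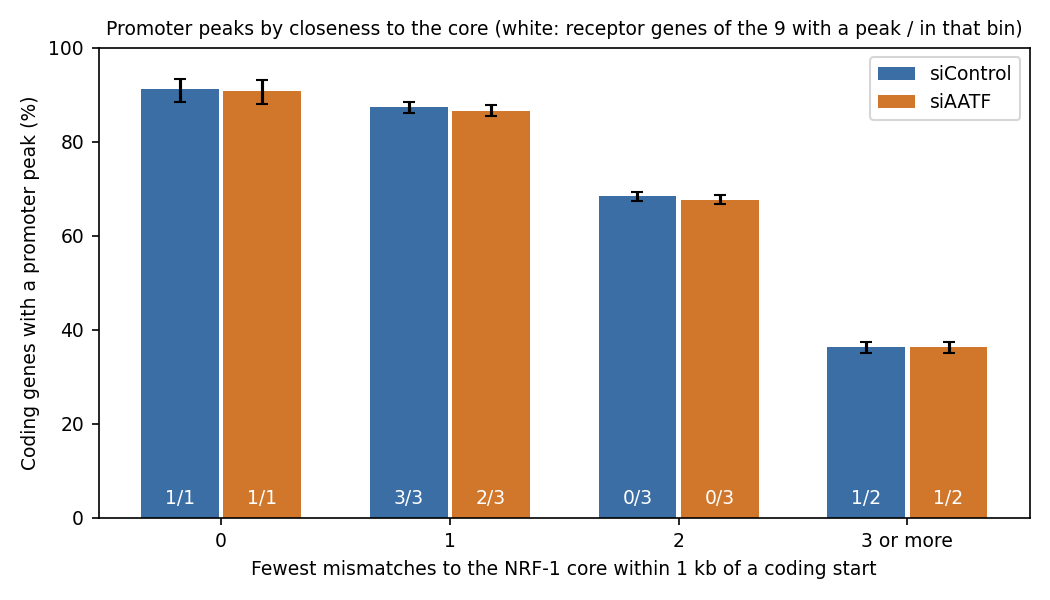
Share of coding genes with a promoter peak (y axis, percent, bars with exact 95% binomial intervals) by the fewest mismatches to the NRF-1 core within 1 kb of a coding start (x axis), in siControl and siAATF. The share was 91.2% with 0 mismatches and 36.3% with 3 or more in siControl, and the white counts give the receptor genes with a peak among those in each bin, 0 of 3 at 2 mismatches.

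The relation across all coding genes was graded. In siControl a promoter peak was present for 91.2% (95% CI 88.5 to 93.4) of genes whose closest window had 0 mismatches, 87.3% (86.1 to 88.5) with 1, 68.4% (67.4 to 69.3) with 2 and 36.3% (35.1 to 37.5) with 3 or more. GRIN1, GRIN2A and GRIA1 were in the class with 2 mismatches, in which most coding genes had a peak but none of these 3 did. The intervals cover counting error only, and genes are not independent replicates. Genes with more coding starts had more sequence searched for both the core and a peak, and CpG content was not held equal between the classes. The part of either in this relation was not tested.

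The forms of the core differed in how often they were occupied. Over all coding promoters, 86.4% (83.0 to 89.3) of 491 exact cores lay in a siControl peak, as did 87.0% (84.3 to 89.3) of 736 sites of the form shared by GRIN2B and GRIA2. The form of the GRIA3 site, C2G or its reverse, was in a siControl peak at 66.2% (58.2 to 73.6) of 154 sites. The form at the upstream start of GABRB1, A5T or its reverse, was in a peak at 84.9% (80.0 to 89.1) of 259 sites, but that site was in no peak of either list. The siAATF shares were 86.2%, 86.1%, 66.2% and 84.6%, respectively.

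**Figure D2:**
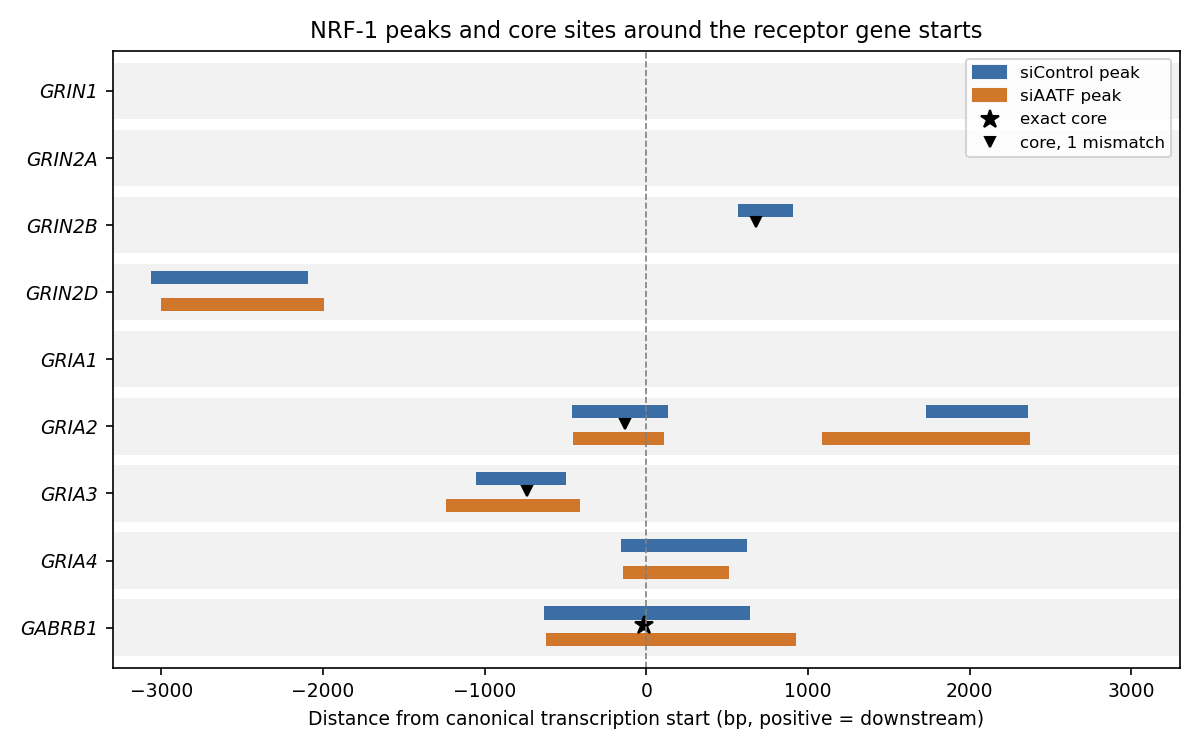
Peaks and core sites around the canonical transcription start (x axis, bp, positive downstream) for the 9 receptor genes (rows). Bars are peaks in siControl (upper) and siAATF (lower), the star is the exact core and triangles are cores with 1 mismatch, both searched within 1 kb of a coding start. GRIA2, GRIA3, GRIA4 and GABRB1 have bars in both lists, GRIN2B in siControl alone. GRIN1, GRIN2A and GRIA1 have none in this range, and the bars of GRIN2D lie outside its promoter, 2.10 kb upstream in siControl and 1.99 kb in siAATF.

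GRIA2 encodes the subunit that, after RNA editing, makes AMPA receptors nearly impermeable to calcium. Its main peak was at chr4:158141419-158142014 in siControl and at chr4:158141428-158141991 in siAATF. In each list the peak covered the canonical start and overlapped exon 1 but no coding sequence. Fold enrichment over the local background was 7.08 in siControl and 7.46 in siAATF, and −log10 q was 35.8 and 38.9. To place these in each list, peaks were given a percentile rank by fold enrichment, with 100 for the strongest peak of the list, and the GRIA2 peak ranked 67.7 in siControl and 78.5 in siAATF, the highest rank of the 4 genes in the latter. The core lay at −139 to −130 bp from the canonical start, and 62 CpG steps fell within the 596 bp of the siControl peak.

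A second GRIA2 peak lay near another coding start, in intron 2 of the canonical transcript. It was at chr4:158143612-158144240 in siControl (629 bp, rank 33.1, −log10 q 17.0) and at chr4:158142966-158144252 in siAATF (1287 bp, rank 13.1, −log10 q 9.74). It was thus wider and lower in rank in siAATF while the main peak was slightly narrower and higher, and its closest window had 2 mismatches to the core in each list.

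GRIA3, an X-linked AMPA receptor gene, had its peak upstream of all its coding starts. It was at chrX:122317075-122317633 (559 bp) in siControl and chrX:122316895-122317719 (825 bp) in siAATF. Fold enrichment was 7.39 in siControl and 5.10 in siAATF, with −log10 q of 11.4 and 5.08, so the siAATF peak was just above the stricter limit of 5. Its rank was 71.9 in siControl, the highest of the 5 occupied genes there, and 41.8 in siAATF, a difference of −30.1 points. Of 11774 coding genes with a promoter peak in both lists, 6.55% differed by more than 20 points in either direction, and 0.781% had a lower difference than GRIA3. Among the 4 receptor genes compared, 1 passed 20 points. Ranked by −log10 q, the GRIA3 peak was at 53.8 in siControl and 33.6 in siAATF, a difference of −20.1 points. How far such a rank moves between replicates was not measured. The siAATF peak was also the wider, and width bears on both measures, but its part in this difference was not tested.

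GABRB1 had the most significant peak of the 9 genes in siControl, at chr4:47032949-47034225 (1277 bp), with a −log10 q of 51.8. The siAATF peak was at chr4:47032962-47034510 (1549 bp), with a −log10 q of 38.3. Fold enrichment was 6.46 in siControl (rank 59.4) and 5.33 in siAATF (rank 45.8), a difference of −13.5 points, and 7.37% of coding genes had a lower one. Ranked by −log10 q, the peak was at 86.0 and 82.2, so that the size of this difference depended on the measure. The exact core lay at −16 to −7 bp from the canonical start, next to the start itself. The 150 bases before that start, chr4:47033434-47033583 on the plus strand of GRCh37, are printed with the core in capitals, to show that only 5 CpG steps fell in this stretch.
GABRB1 upstream: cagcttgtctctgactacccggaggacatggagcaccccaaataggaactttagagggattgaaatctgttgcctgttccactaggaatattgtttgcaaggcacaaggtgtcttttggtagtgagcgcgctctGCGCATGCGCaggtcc

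The other coding start of GABRB1, at position 46995740 of chromosome 4, held a site 6 bp away that lay in no peak of either list. The same site is at −153 to −144 bp from the start of GABRA4, the alpha subunit gene on the other strand, and the nearest peak to GABRA4 was the GABRB1 peak, 37.4 kb away in each list.

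GRIA4, another AMPA receptor gene, had a weak peak over its start and exon 1 in both lists, at chr11:105480642-105481423 in siControl and chr11:105480653-105481312 in siAATF. Fold enrichment was 4.69 in siControl and 5.06 in siAATF, −log10 q was 3.71 and 4.57, and the rank was 31.6 and 41.1. Both peaks were below the stricter limit, and neither held a window closer to the core than 3 mismatches.

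The GRIN2B peak, at chr12:14133629-14133971, was 343 bp wide and lay in intron 1, 565 to 907 bp downstream of the canonical start. It had a fold enrichment of 4.24, a rank of 22.7 and a −log10 q of 2.93 in siControl, and the nearest siAATF peak was 253 kb away. A promoter peak in siControl alone was seen for 1.62% of coding genes and for 1 of 9 receptor genes. The peak was weak in its own list, and a −log10 q of at least 5 removed it.

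**Figure D3:**
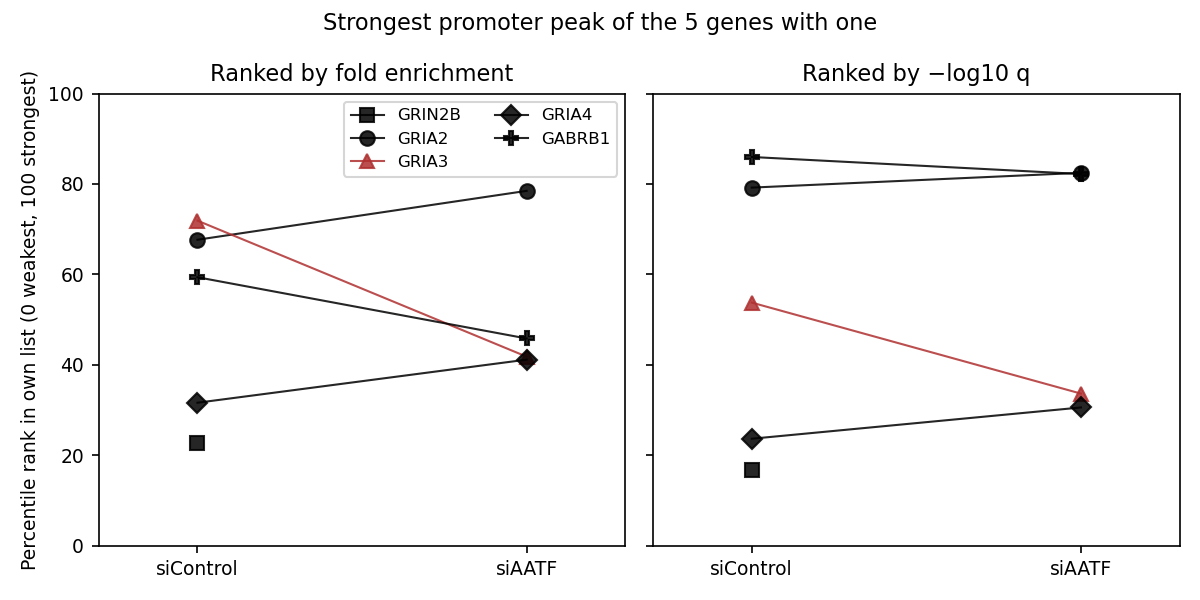
Percentile rank in its own list (y axis, 0 weakest, 100 strongest) of the strongest promoter peak of the 5 occupied receptor genes in siControl and siAATF, ranked by fold enrichment (left) and by −log10 q (right). Each line is 1 gene, with GRIA3 in red and GRIN2B as a single point since it had no siAATF peak. GRIA3 goes from 71.9 to 41.8 by fold enrichment, while GRIA2 and GRIA4 are higher in siAATF in both panels.

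Over the 4 genes with a promoter peak in both lists, 2 were lower and 2 higher in siAATF, with a median difference of −2.01 points, beside 0.157 points over all 11774 coding genes. The middle 95% of coding genes ran from −21.2 to 22.8 points, a range that held GRIA2 (10.8), GRIA4 (9.53) and GABRB1 (−13.5) but not GRIA3. The median rank of the occupied receptor genes was 59.4 in siControl and 43.8 in siAATF, beside 63.4 and 64.4 for coding genes with a promoter peak, but the first of these includes GRIN2B and the second does not.

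The unoccupied genes were split in their content of CpG steps. Within 1 kb of the canonical start, the observed to expected CpG ratio was 0.732 for GRIN1 and 0.741 for GRIN2A, above that of each occupied gene, and 0.359 for GRIN2D and 0.275 for GRIA1, below that of each. The occupied genes ran from 0.460 for GABRB1 to 0.710 for GRIA2. GRIN2A also had the highest GC content of the 9 genes, 69.1%, above 94.9% of coding genes, while GABRB1 had the lowest, 49.5%, above 23.6%. Among coding genes with a ratio of at least 0.6, the promoter carried a peak for 85.4% in siControl and 84.8% in siAATF. Of the 4 receptor genes in that class, GRIN2B and GRIA2 had one in siControl, and GRIA2 alone in siAATF.

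The distance to the nearest peak differed widely among the unoccupied genes. For GRIN2A it was 560 kb in siControl and 397 kb in siAATF, and for GRIA1 it was 547 kb and 546 kb, so no peak lay anywhere near their starts. GRIN1 had a peak 7.97 kb upstream in siControl (chr9:140023644-140024826, rank 65.9, −log10 q 68.7) and 7.96 kb upstream in siAATF (rank 72.6, −log10 q 69.9), at no coding start. For GRIN2D the nearest peak was 2.10 kb upstream in siControl and 1.99 kb in siAATF, at a promoter of KDELR1, with ranks of 9.39 and 15.9. A promoter window of 2 kb would therefore count GRIN2D as occupied in siAATF alone.

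Peaks within the gene bodies, outside the promoters of the same gene, were found for 2 of 9 genes in siControl, GRIN1 and GRIN2B, and for 3 of 9 in siAATF, with GRIN2D in addition. Of all coding genes, 13.1% had one in siControl and 14.1% in siAATF. Since long genes offer more room and 7 of the 9 span 100 kb or more, genes of that length were also counted alone, and 27.1% and 29.2% of them had a gene body peak, beside 1 of 7 receptor genes, GRIN2B, in each list. No AMPA receptor gene, GRIN2A or GABRB1 had one, although these genes span 183 to 433 kb.

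GRIN1 held most of these peaks. The strongest by −log10 q overlapped the untranslated end of its last exon, exon 20. It was at chr9:140062662-140064431 in siControl (rank 7.72, −log10 q 10.8) and chr9:140062701-140064362 in siAATF (rank 12.5, −log10 q 9.75). Most of this peak lay past the end of GRIN1, at position 140063208, and it reached the promoter of the neighbouring gene LRRC26. It is the one gene body peak of the 9 genes with a core within 1 mismatch, and the sites are printed because they place the match at the end of GRIN1 rather than at its start. The first, with A5C, lay in GRIN1 and reached only partly into the siAATF peak, and the second, with T6G, the same form on the other strand, lay past the end of GRIN1.
GRIN1 exon 20, chr9:140062686-140062715, plus strand: ccctcctcggGCGCCTGCGCtcctctgcag
past GRIN1, chr9:140064164-140064193, plus strand: gcagcagcgcGCGCAGGCGCaggctcaggc

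A further GRIN1 peak in intron 4 was at chr9:140044816-140045688 in siControl (rank 2.45, −log10 q 1.63) and at chr9:140044724-140045927 in siAATF (rank 27.4, −log10 q 7.96). It passed the stricter limit in siAATF alone and held no window closer than 3 mismatches to the core. A peak over the coding exons 5 and 6 of GRIN1, chr9:140051032-140051678, was found in siControl alone (rank 3.09, −log10 q 1.51), with the nearest siAATF peak 5.11 kb away.

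GRIN2B had a weak peak in intron 4, 254 kb from its start, in both lists, at chr12:13880810-13881009 in siControl (fold enrichment 4.36, rank 25.2) and chr12:13880668-13881093 in siAATF (fold enrichment 4.47, rank 29.3), with 0 CpG steps in either. GRIN2D had a peak in intron 11 in siAATF alone, chr19:48927956-48928361 (rank 28.8, −log10 q 3.77), 20.6 kb from any siControl peak. In all, the 9 genes held 10 peaks in siControl and 9 in siAATF. Of these, 8 in each list overlapped a peak of the other. The peaks of 1 list alone were the GRIN2B promoter peak and the GRIN1 peak over exons 5 and 6 in siControl and the GRIN2D peak in siAATF. The share of all peaks that overlap the other list is not given here, so these counts are not read as a trait of the 9 genes.

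The wider receptor families were counted from fixed lists of 37 other genes. Of these, a peak at the promoter was present in 2 of 9 other ionotropic glutamate receptor genes in each list, in 3 of 18 other GABA-A receptor genes in each list, and in 1 of 10 metabotropic glutamate and GABA-B receptor genes in siControl and 2 of 10 in siAATF. Together with the 9 genes this gave 11 of 46 receptor genes (23.9%) in each list, below the share of coding genes given above. Among the 37 other genes, the 3 highest ranks in siControl belonged to the kainate receptor genes GRIK2 (91.4, and 84.0 in siAATF) and GRIK4 (80.3 and 75.6) and to GABRB2, the beta subunit gene related to GABRB1 (61.9 and 76.0). The metabotropic gene GRM7 had a promoter peak in siAATF alone (rank 18.7, −log10 q 2.40), and no further gene of the 37 had one in a single list, nor did any of them differ by more than 20 points. Of the 12006 coding genes with a promoter peak in siAATF, 11774 also had one in siControl.

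**Figure D4:**
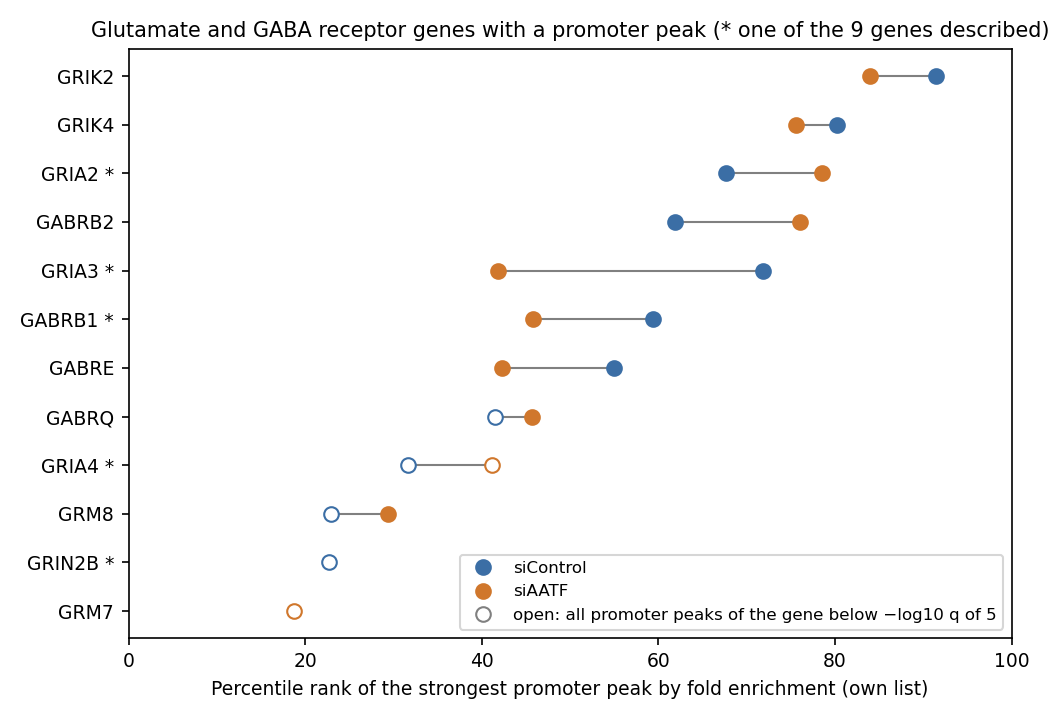
Rank of fold enrichment within each list (x axis, percentile) of the strongest promoter peak of each of the 12 receptor genes with a promoter peak in either list (rows, asterisks for genes of the 9), in siControl and siAATF. Filled points are genes with a promoter peak at −log10 q of at least 5. GRIA3 has the longest line, from 71.9 in siControl to 41.8 in siAATF.

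A core match was present in the promoters of 2 of the 37 other genes, GABRB2 and GABRA4, so that 6 of all 46 receptor genes had one. The exact core was found in 2, GABRB1 and GABRB2, both beta subunit genes. They are printed together to show that the core stood at nearly the same distance before the start in both, at −16 to −7 bp in GABRB1 and at −13 to −4 bp in GABRB2, with unlike bases around it.
GABRB1, chr4:47033558-47033587, plus strand: agcgcgctctGCGCATGCGCaggtccattc
GABRB2, chr5:160973725-160973754, minus strand: ggtacgccgtGCGCATGCGCctcacattag

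The GABRB2 peak, like that of GABRB1, spanned its start in both lists, with −log10 q of 17.5 in siControl and 14.2 in siAATF. GABRA4 had no promoter peak in either list. Of the receptor genes with a core match, 5 of 6 were occupied at the promoter in siControl and 4 of 6 in siAATF, against 6 of 40 and 7 of 40 of those without. GRIK2 and GRIK4, whose peaks ranked highest in siControl, were among those without, with a closest window of 2 mismatches. The other occupied genes without a match were GABRE, GABRQ, GRM8 and GRIA4 in both lists and GRM7 in siAATF alone. The closest window of GRIA4 had 3 mismatches.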

How the data were processed

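NRF-1 chromatin immunoprecipitation by ChIPmentation, in which a transposase adds the adapters, was done in U251 cells after siControl or siAATF transfection. According to the methods and the submitters' processing notes, Bowtie2 placed the reads on hg19 and MACS2 called the peaks, in an ATAC-seq pipeline at its default settings. The sample labels name U251, although the design text of the series names U138. The experiment was described as duplicated, but each label carries replicate 1 and pooling was not stated. The fold enrichment (a ratio) and the −log10 q of each peak are the values deposited by the authors. For broad peaks MACS2 writes means over the whole peak, so width bears on both. Lowest −log10 q was 1.03 and 1.02, so weak peaks were kept.

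Scripts in Python 3.11.15 (numpy 2.4.6, pandas 2.3.3, scipy 1.17.1) placed the peaks on GRCh37 and GENCODE release 44 lifted to it. Contigs other than its chromosomes held 132 siControl and 122 siAATF peaks, which entered the ranks only, and 0 other peaks ended outside a chromosome. Of the coding genes, 280 had no canonical coding transcript and were given their outermost start. Peaks overlapped from 1 base. A gene's strongest promoter peak by fold enrichment gave its rank. Overlap and core search were tested on simulated data. No test between conditions was possible with 1 list each. The 9 genes and the receptor lists were chosen with earlier results of these data known, and the control palindrome, the CpG classes and the count by form of the core after the lists had been examined. Named receptor genes outside the 9 were those with a promoter peak in 1 list, the 3 highest in rank in siControl, those differing by over 20 points, and genes with a core match. GABRE, GABRQ and GRM8 were named besides, as occupied genes without a core match, and GRIN2C for its gene body peak. A listed receptor gene is not reported here, and the counts leave it out.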

Additional observations from a re-analysis of the deposited data

How the results depend on the processing

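No paired analysis was possible because each condition had a single list. Of 65 values under other settings, 47 stayed within 1.5 times (counts) or within 5.12 points (ranks, the median absolute difference over coding genes), 18 moved and 0 changed sign. With −log10 q of at least 5, which leaves fewer peaks, promoter peaks remained for 3 of the 9 genes in siControl, gene body peaks for 1 gene in each list, and 5 peaks were shared in each direction. The median rank, within the shorter lists, was then 52.3 in siControl and 19.1 in siAATF, and the median difference −21.05 points. That difference was the value of GABRB1 among the 3 genes left, with GRIA3 at −44.47 and GRIA2 higher in siAATF at 15.44. The median over coding genes in the shorter lists is not given here. Ranked by −log10 q, the medians were 53.8 and 57.9. A core match was found in 2 promoters with a window of 500 bp, in 1 with no mismatch and in 7 with up to 2. The exact core was in 2.75% of coding promoters, and all but 6691 of 19794 coding genes had a window with up to 2 mismatches. The sites lost at 500 bp were those of GRIA3 and GRIN2B, 612 and 680 bp from the nearest coding start. The share of coding genes with a match at that window is not given here. Depth was unknown, which limits any reading of weak peaks such as those of GRIN2B, GRIN2D and GRIA4.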

Other observations

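The following peaks and forms were chosen after their values had been seen. In the kainate receptor gene GRIK4, a peak over the coding part of exon 21, 474 kb from the start, ranked higher than the promoter peak, at 97.2 in siControl and 96.4 in siAATF (−log10 q 30.2 and 24.4), with 2 mismatches in its closest window. In the NMDA receptor gene GRIN2C, which had no promoter peak, a peak over the coding exon 13 ranked 60.7 and 60.4 (−log10 q 39.5 and 39.2) and held a core with 1 mismatch.

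Over all coding promoters, 80.0% (95% CI 78.7 to 81.2) of 4138 core sites within 1 mismatch lay in a siControl peak, beside 52.8% (50.9 to 54.8) of 2570 sites of the control palindrome. By form, the siControl share was highest for the exact core, the changes of the middle bases and a change of an outermost base. These changes were A5C (86.5%), A5G (87.0%), A5T (84.9%) and G1A (84.6%), each counted with its reverse. The siControl share was lowest for C2T or its reverse, at 37.3% of 67 sites, and that form had 38.8% in siAATF. The difference between forms was not tested.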
